A study of Mus musculus with 9 samples.

Results

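The MHC class I presentation genes described here are 10 mouse genes picked by symbol from the deposited counts: *H2-K1*, *H2-D1*, *H2-T23*, *B2m*, *Tap1*, *Tap2*, *Tapbp*, *Psmb8*, *Psmb9*, and *Nlrc5*. They are 10 of the 50559 genes listed, and all 10 were among the 16618 genes left by the low-count filter. The cells were CD45+CD11b+ myeloid cells sorted from the quadriceps of *mdx* mice, which lack dystrophin and model Duchenne muscular dystrophy. Every group carried the same *mdx* mutation, and no WT mice were in the RNA-Seq, so that each difference is between dystrophic groups. Mice were 4.5 weeks old after 7 days of vehicle (sucralose-sweetened MediDrop in the water bottle), the mineralocorticoid receptor antagonist spironolactone, or the glucocorticoid prednisolone, both dissolved in that vehicle. Each group had 3 libraries, and each library was a pool of cells from 3 mice, so that the error is between pools and not between animals. Mice of both sexes were used, with more females than males in each group and the most females in the prednisolone group. The sexes within a pool are not given, and living cells were not separated from dead ones in the sort.

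MHC class I molecules show fragments of a cell's own proteins to CD8+ T cells and NK cells. The proteasome cuts the proteins, the TAP transporter carries the peptides into the endoplasmic reticulum, and tapasin holds an empty class I molecule beside TAP until a peptide fits. Interferon raises nearly every step, partly by replacing proteasome subunits with immunoproteasome subunits and partly through NLRC5, a transactivator that acts at class I promoters. In dystrophic muscle, macrophages and other myeloid cells take up the debris of damaged fibers and also carry class I molecules.

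On GRCm39 with GENCODE annotation, 8 of the 10 genes lie on chromosome 17, in the H2 complex. *Tapbp* spans chr17:34134873-34148267 on the plus strand and *H2-K1* spans chr17:34214987-34219321 on the minus strand. *Psmb9* (chr17:34400960-34406738, minus strand), *Tap1* (chr17:34405996-34416199, plus strand), *Psmb8* (chr17:34416690-34420428, plus strand), and *Tap2* (chr17:34422501-34435829, plus strand) follow each other. *H2-D1* (chr17:35481691-35486475, plus strand) and *H2-T23* (chr17:36340229-36345571, minus strand) lie farther along. *B2m* is on chromosome 2 (chr2:121977957-121983594, plus strand) and *Nlrc5* on chromosome 8 (chr8:95160984-95253900, plus strand). Exons of *Psmb9* and *Tap1* overlap on opposite strands, and each of the other members also overlaps an annotated gene on the other strand. The overlap is between exons in all of these but *B2m*. The strand setting of the counting is not given in the sources used here, so reads in overlapping exons cannot be assigned with certainty. Class I heavy chain genes are also near-copies of each other, and the counts of *H2-K1*, *H2-D1*, and *H2-T23* depend on how reads shared with those copies were treated.

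The promoter stretches below are shown because several of these genes moved together in the counts. Whether shared control elements have a part in that was not tested. The stretches were taken from RefSeq windows (GRCm38.p6 table, 250 bases before each start, matched base for base to GRCm39), which held 8 of the 10 genes. *Tap2* and *Nlrc5* had no window. *H2-K1* had 2 overlapping windows, of which 1 is shown, and the other holds a further CCAAT. Windows of the other genes lie inside the annotated gene, wholly or, for *B2m*, in part. Capitals mark the letters GGGANTCCC (an NF-kappaB-type core), GAAANNGAA (a core of interferon-stimulated elements), or CCAAT, searched on both strands. GGGANTCCC is its own reverse complement, so that each match lies on both strands. The full 250 bases are given for *H2-K1*, whose window lies wholly before the annotated gene (chr17:34219322-34219571, minus strand), followed by the stretch around the same element in *H2-D1* (chr17:35481890-35481918, plus strand), the stretches around GAAANNGAA in *B2m* (chr2:121978019-121978047, plus strand) and *H2-T23* (chr17:36343698-36343726, minus strand, where the element is on the other strand), and the bases next to the *Psmb9* start (chr17:34406305-34406322, minus strand).
H2-K1: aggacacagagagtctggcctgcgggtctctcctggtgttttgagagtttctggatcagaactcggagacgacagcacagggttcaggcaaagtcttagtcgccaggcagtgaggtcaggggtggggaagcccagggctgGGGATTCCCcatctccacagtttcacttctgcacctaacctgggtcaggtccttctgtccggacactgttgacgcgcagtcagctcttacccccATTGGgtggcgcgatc
H2-D1: cccagggctgGGGATTCCCcatctcctca
B2m: ataagaacatGAAACTGAAaatgggaaag
H2-T23: tcctactgctTTCTCTTTCataaagacac
Psmb9: gcagccgctgATTGGaaa

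GGGANTCCC was found in *H2-K1* and *H2-D1* only, 2 of the 8 genes with a window, and in 0.636% of 32851 RefSeq mouse windows of that length. When the 2 genes were aligned on the element with 60 bases on each side, 122 of 129 bases were identical. GAAANNGAA was found in *B2m* and *H2-T23*, and in 7.13% of all windows. Only this order of letters was searched for interferon-stimulated elements. The lack of a match, as in *H2-K1* and *H2-D1*, therefore does not show that a window holds no such element. CCAAT was found in 7 of the 8, all but *Psmb8*, and in 33.8% of all windows. The RefSeq starts of *Psmb9* and *Tap1* face away from each other with 225 bases between them, and these hold 1 CCAAT, 8 to 4 bases before the *Psmb9* start. A match of letters does not show that a factor binds there, and none was measured.

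Each library held between 31469815 and 32943512 counts on genes, and 17.22% to 21.76% of the reads were assigned to no gene. These were reads on no annotated feature (5.76% to 9.33%), aligned to several places (6.81% to 10.42%), or ambiguous between genes (2.16% to 2.35%). The rest were of low alignment quality or not aligned. The member genes took 0.544% to 0.757% of the counts on genes. Vehicle replicate 1 stood apart from the other vehicle libraries: it had the largest share of reads on no annotated feature (9.33%) and, averaged over standardized values of the 10 genes, a class I score of -0.77, against 0.82 and 0.75 in vehicle replicates 2 and 3. The spironolactone scores ran from 0.39 to 0.70 and the prednisolone scores from -1.49 to -0.06. Counts of members and of their partner lists are therefore also given without vehicle replicate 1 where it changed them. That library was picked out in part by its low level of these same genes. More members called lower with prednisolone can thus be expected without it, and those counts are a description. The sort was checked against its defining markers: the summed level of 8 myeloid genes, *Ptprc* and *Itgam* among them, was 16650 to 20240 CPM. Markers of cells outside the gate were also present, at 636 to 1240 CPM for 8 fibroblast, 209 to 656 for 10 skeletal muscle, and 101 to 270 for 10 endothelial genes. The 15 lymphocyte genes summed to 16.2 to 52.0 CPM, and *Trac* was at 0 in every library.

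Levels between genes were compared per length, as TPM (counts divided by summed exon length and scaled to the same total in each library). *B2m*, the light chain shared by class I molecules, was the most abundant member at 5687 ± 634 TPM (SD over 9 libraries), followed by the classical heavy chains *H2-D1* at 3152 ± 278 and *H2-K1* at 1197 ± 150. This order held in 9 of 9 libraries. *H2-T23*, which encodes the nonclassical chain Qa-1, was at 239 ± 32.7 TPM and *Tapbp* at 232 ± 14.3. *H2-T23* was above *Tapbp* in 5 of 9 libraries, and their ranges overlapped. *Psmb8* (178 ± 27.4 TPM), *Tap1* (118 ± 17.6), *Tap2* (73.0 ± 6.50), and *Psmb9* (51.0 ± 10.8) came next, each above the following gene in 9 of 9 libraries. The ranges of *Psmb8* and *Tap1*, and of *Tap2* and *Psmb9*, nevertheless overlapped. *Nlrc5* was lowest at 41.5 ± 8.63 TPM and lay below *Psmb9* in 6 of 9 libraries.

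The members moved together over the libraries. The median Pearson correlation of log2 CPM between pairs of members was 0.828 (45 pairs, 9 libraries, range 0.0899 to 0.974), given as a description, since all points share their libraries and group differences. *Tap2* followed the mean of the other members most closely (r = 0.979) and *Nlrc5* least (r = 0.293). With the group means removed, these correlations were 0.962 for *Tap2* and -0.0153 for *Nlrc5*. *Tapbp* was at 0.784 over all libraries and 0.914 within groups. The within-group SD of log2 CPM was lowest for *Tapbp* (0.135) and *Tap2* (0.135) and highest for *Nlrc5* (0.292), against a median of 0.216 over all genes tested.

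**Figure D1:**
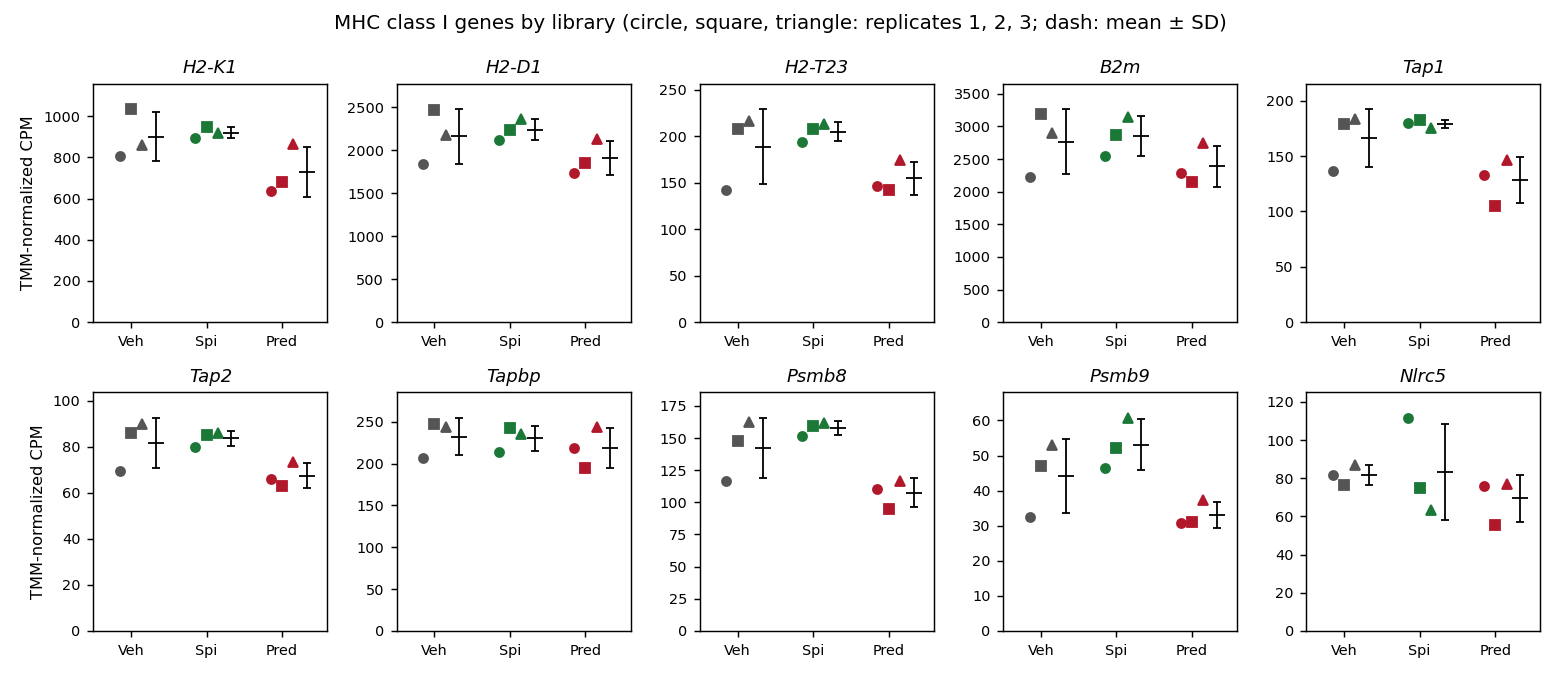
TMM-normalized CPM of each member (y axes, from 0) in vehicle (Veh, grey), spironolactone (Spi, green), and prednisolone (Pred, red) libraries. Each point is 1 pooled library, and the dash with bars is the mean ± SD of 3. The circle of the vehicle group, replicate 1, lies below the other vehicle points in 9 of the 10 genes, and the exception is *Nlrc5*.

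The heavy chains and their light chain were examined first. *H2-K1* encodes the K heavy chain and was at 805, 1034, and 862 CPM in vehicle, 893, 948, and 920.4 in spironolactone, and 634.5, 682, and 865 in prednisolone libraries 1 to 3. The 3 prednisolone values all lay below the 3 spironolactone values, but the highest of them lay within the vehicle range. *H2-D1* encodes the D heavy chain and was at 1838, 2469, and 2170 CPM in vehicle, 2115, 2228, and 2363 in spironolactone, and 1738, 1855, and 2126 in prednisolone. All 3 groups overlapped. *H2-T23* presents leader peptides of other class I chains to NK cell receptors and was at 143, 208, and 216.5 CPM in vehicle, 194, 208.0, and 213 in spironolactone, and 147, 142.5, and 175 in prednisolone. Vehicle replicate 1 was at the level of the prednisolone libraries, while the other vehicle libraries were within or above the spironolactone range. *B2m* was at 2218, 3189, and 2895 CPM in vehicle, 2543, 2866, and 3146 in spironolactone, and 2290, 2144, and 2747 in prednisolone, with overlap between all groups.

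The peptide transporter and its bridge to the heavy chain followed. *Tap1* encodes one chain of TAP and was at 137, 179, and 184 CPM in vehicle, 180.3, 182, and 175 in spironolactone, and 133, 105, and 146 in prednisolone. The spironolactone libraries were close together and above every prednisolone library. *Tap2* encodes the other chain and was at 69.4, 85.9, and 89.8 CPM in vehicle, 80.1, 85.0, and 85.8 in spironolactone, and 66.2, 62.9, and 73.3 in prednisolone. Again all spironolactone values exceeded all prednisolone values, and vehicle replicate 1 fell among the latter. *Tapbp*, tapasin, was at 207, 247, and 243 CPM in vehicle, 214, 242, and 235 in spironolactone, and 219, 195, and 243 in prednisolone. No group was separate from another for *Tapbp*.

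The immunoproteasome subunits gave the widest differences. *Psmb8* (LMP7) was at 117, 148, and 162 CPM in vehicle, 152, 160, and 162 in spironolactone, and 111, 95.2, and 117 in prednisolone. The highest prednisolone library was below every spironolactone library and just below the lowest vehicle library, replicate 1, both at 116.8 CPM after rounding. *Psmb9* (LMP2) was at 32.6, 46.9, and 52.9 CPM in vehicle, 46.4, 52.1, and 60.7 in spironolactone, and 30.8, 31.1, and 37.3 in prednisolone. Spironolactone and prednisolone libraries did not overlap, and vehicle replicate 1 was between the prednisolone values. *Nlrc5* was at 81.5, 76.5, and 87.1 CPM in vehicle, 112, 75.0, and 63.4 in spironolactone, and 76.0, 55.4, and 77.1 in prednisolone. The spironolactone libraries held the highest *Nlrc5* value and also 2 values below the vehicle range.

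Prednisolone was compared with vehicle to ask whether the glucocorticoid altered class I presentation genes in these cells. All 10 members were lower on average with prednisolone, with log2 fold changes from -0.42 (*Psmb9*) to -0.08 (*Tapbp*) and a median of -0.28, against -0.01 for all genes tested. None passed an adjusted p of 0.05 in edgeR's quasi-likelihood test, where 1.76% of all genes tested were called. With DESeq2, 1 was called (*Psmb8*), where 4.47% of all genes were called, and with limma-voom 0, where 1.58% were. At an unadjusted p under 0.05, 5 of the 10 were lower (*H2-K1*, *Tap1*, *Tap2*, *Psmb8*, and *Psmb9*), where 14.2% of all genes passed in either direction. Libraries did not overlap for 1 member, *Psmb8*, where 19.7% of all genes did not overlap. Since the cells were measured in bulk, fewer cells of a type that carries these transcripts and less RNA per cell cannot be told apart. Of the lymphocyte markers tested, 13 of 14 were lower with prednisolone than with vehicle (4 with an unadjusted p under 0.05, none called), as were 8 of 10 neutrophil markers (3 with such a p, none called). Vehicle replicate 3 stood apart for the neutrophil markers. They summed to 738, 980, and 4789 CPM in vehicle and 974, 966, and 763 in prednisolone libraries 1 to 3. Of the skeletal muscle markers tested, 8 of 9 were higher (3 with such a p), and *Myh1* was called (log2 fold change 1.07, adjusted p = 0.0239 in edgeR). Of the 10 dendritic cell markers, 3 were higher with such a p (*Flt3*, *Zbtb46*, and *Cd209a*) and 1 was lower (*Batf3*), none called. Of the 8 myeloid markers, *Itgb2* was higher (0.31) and *Fcgr1* lower (-0.43) with such a p, and none was called. The part of these cells, or of the differences in single myeloid markers, in the result was not tested.

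*Psmb8* had the smallest p in that comparison, with a log2 fold change of -0.40 ± 0.117 (SE, edgeR; 95% interval -0.66 to -0.15) and an adjusted p of 0.108. Mean *Psmb8* was 108 ± 11.2 CPM with prednisolone and 142 ± 23.2 with vehicle (SD, n = 3 libraries each). *Tap1* followed with -0.38 ± 0.129 (adjusted p = 0.184 in edgeR), from 166 ± 26.0 CPM with vehicle to 128 ± 20.9 with prednisolone. *H2-K1*, *Tap2*, and *Psmb9* had log2 fold changes of -0.31, -0.28, and -0.42, with adjusted p of 0.273, 0.227, and 0.26 in edgeR. The intervals for *H2-D1* (-0.44 to 0.08), *H2-T23* (-0.59 to 0.01), *B2m* (-0.51 to 0.09), *Tapbp* (-0.31 to 0.14), and *Nlrc5* (-0.66 to 0.19) included 0.

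Besides the tool and the low-count filter, vehicle replicate 1 changed how many members were called. Without it, 5 were called lower with prednisolone (*H2-T23*, *Tap1*, *Tap2*, *Psmb8*, and *Psmb9*), 8 had an unadjusted p under 0.05, and the median log2 fold change was -0.38. In that fit 4.83% of all genes were called and 19.4% had an unadjusted p under 0.05, against 1.76% and 14.2% with all 9 libraries. Without prednisolone replicate 2, which had the lowest class I score, 1 member (*Psmb8*) had an unadjusted p under 0.05 and none was called, where 10.1% of all genes had such a p and 0.402% were called. Without prednisolone replicate 1, vehicle replicate 2, or vehicle replicate 3, 2 members had such a p, where 11.1% to 11.8% of all genes did. These counts of 1 and 2 are near the share over all genes. Without prednisolone replicate 3, 6 members had such a p, where 11.4% of all genes did, and the median log2 fold change was -0.36. Leaving out any 1 spironolactone library gave 5 members with such a p, where 13.4% to 14.9% of all genes had one. All 10 members stayed lower with prednisolone in each of the 9 fits that left out a library.

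Spironolactone was compared with vehicle in the same fit. Of the 10 members, 9 were higher on average and *Tapbp* was lower, with log2 fold changes from -0.01 to 0.27 and a median of 0.05, against 0.00 for all genes tested. None was called in edgeR, where 0.0181% of all genes were called (3 genes). DESeq2 called no member, where it called 1.77% of all genes, and limma-voom called no gene at all in this comparison. None had an unadjusted p under 0.05, where 9.29% did, and none had libraries that did not overlap, where 13.5% did. The largest difference was in *Psmb9*, at 53.1 ± 7.20 CPM with spironolactone and 44.1 ± 10.4 with vehicle (log2 fold change 0.27, 95% interval -0.09 to 0.62, adjusted p = 0.665 in edgeR). Markers higher with an unadjusted p under 0.05 were 9 of 10 endothelial, 7 of 9 skeletal muscle, and 7 of 10 dendritic cell genes. So were 7 of 14 lymphocyte and 5 of 8 fibroblast genes, where 9.29% of all genes passed in either direction. No neutrophil marker had such a p, 1 myeloid marker was lower with one, and no marker was called in edgeR. The part of these cells in the result was not tested.

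The intervals bound what could have gone undetected. For *H2-K1* the 95% interval was -0.24 to 0.30, for *H2-D1* -0.21 to 0.31, for *B2m* -0.26 to 0.35, and for *Tap2* -0.19 to 0.26. The interval for *Nlrc5* was wider, from -0.40 to 0.46. Without vehicle replicate 1 the direction changed in 6 members, and the median log2 fold change over the 10 was -0.05.

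**Figure D2:**
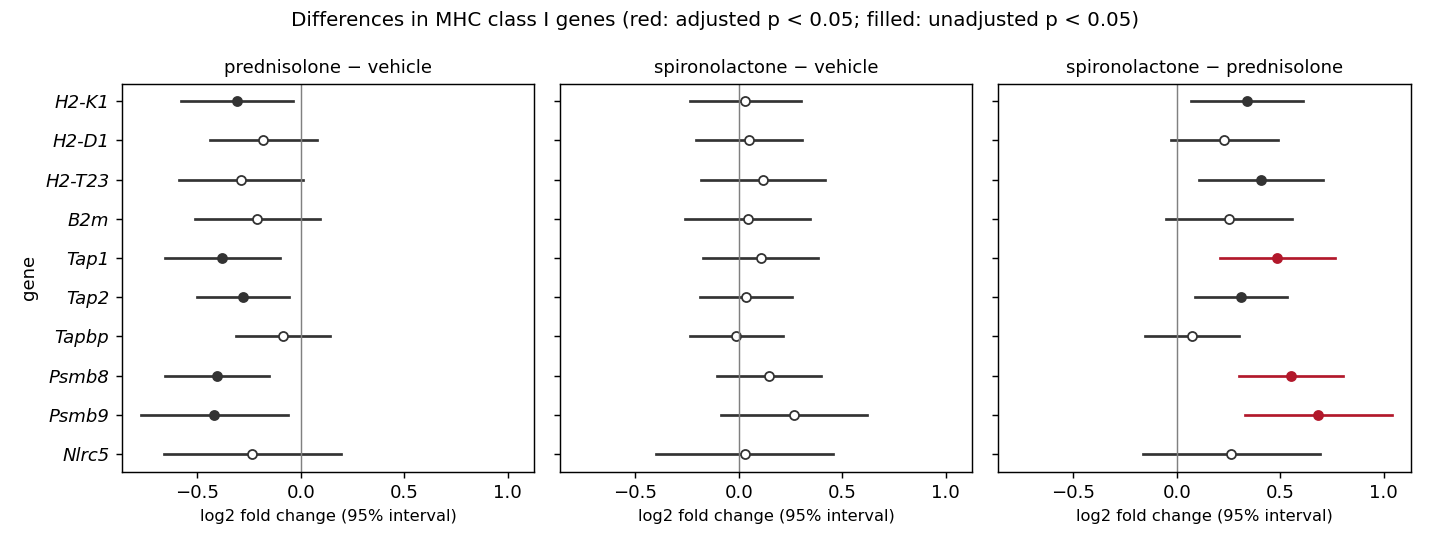
Log2 fold change of each member (x axis) in the 3 comparisons, with bars for the 95% interval of the edgeR fit over 9 libraries. Red marks an adjusted p under 0.05 and a filled point an unadjusted p under 0.05. All 10 points lie below 0 for prednisolone against vehicle, and all 10 lie above 0 for spironolactone against prednisolone, where *Tap1*, *Psmb8*, and *Psmb9* are red.

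The drugs were then compared directly. All 10 members were higher with spironolactone than with prednisolone, by a log2 fold change of 0.07 (*Tapbp*) to 0.68 (*Psmb9*), with a median of 0.32 against 0.03 for all genes tested. The genes called were *Tap1*, *Psmb8*, and *Psmb9*, 3 of 10, where 5.17% of all genes were called. An unadjusted p under 0.05 was found for 6 (*H2-K1*, *H2-T23*, *Tap1*, *Tap2*, *Psmb8*, and *Psmb9*), where 22.5% of all genes passed. For those 6 every spironolactone library lay above every prednisolone library, where 30.3% of all genes did not overlap. This comparison shares its prednisolone libraries with the first and its spironolactone libraries with the second.

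*Psmb8* was 158 ± 5.43 CPM with spironolactone and 108 ± 11.2 with prednisolone, a log2 fold change of 0.55 ± 0.117 (SE; 95% interval 0.30 to 0.80; adjusted p = 0.0179, edgeR). *Psmb9* was 53.1 ± 7.20 against 33.1 ± 3.71 CPM, a log2 fold change of 0.68 ± 0.163 (95% interval 0.33 to 1.04; adjusted p = 0.0342, edgeR). *Tap1* was 179 ± 3.75 against 128 ± 20.9 CPM, a log2 fold change of 0.48 ± 0.129 (95% interval 0.21 to 0.76; adjusted p = 0.0469, edgeR). Each of these 3 genes was higher in 3 of 3 spironolactone libraries than in any prednisolone library.

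*H2-T23*, *Tap2*, and *H2-K1* differed by 0.41, 0.31, and 0.34 and did not pass the adjusted threshold (adjusted p = 0.105, 0.0949, and 0.126 in edgeR). *H2-D1* (0.23, 95% interval -0.03 to 0.49), *B2m* (0.25, -0.05 to 0.56), *Tapbp* (0.07, -0.15 to 0.30), and *Nlrc5* (0.26, -0.16 to 0.69) had intervals that included 0. The most abundant members thus had smaller differences than the immunoproteasome subunits and *Tap1*, but so did every other member. *Nlrc5*, the least abundant, was among these, and differences between members were not tested.

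The calls depended on single libraries. No member was called without spironolactone replicate 2, spironolactone replicate 3, prednisolone replicate 1, or prednisolone replicate 2, when 1.35% to 2.41% of all genes were called. Without vehicle replicate 1, 5 were called (*H2-T23* and *Tap2* in addition), with 11.1% of all genes. Over the 9 fits that left out a library, the adjusted p of *Psmb8* ran from 0.00149 to 0.0955, of *Psmb9* from 0.00169 to 0.132, and of *Tap1* from 0.00756 to 0.179 (edgeR), and none changed direction. *Tap1* was also not called with library totals in place of TMM or with a non-robust fit, where 5.52% and 4.96% of all genes were called. With *Xist* as a covariate, which stands for the unknown share of females in a pool, *Psmb8* alone was called and 7 members had an unadjusted p under 0.05, where 3.82% and 20.7% of all genes did.

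Markers of other cell types, and some of those of the sorted cells, moved with this contrast, in which 5.17% of all genes were called. The 8 myeloid markers summed to 17120 to 18870 CPM with spironolactone, 16650 to 19780 with vehicle, and 18950 to 20240 with prednisolone, so that the drug groups did not overlap. *Lyz2* was the largest part of that sum, at 9529 ± 650 CPM with spironolactone and 11190 ± 1014 with prednisolone, and was not called. Of the 8, 6 were lower and 2 higher with spironolactone than with prednisolone, with a median log2 fold change of -0.07, and 2 in each direction had an unadjusted p under 0.05. *Itgam*, which encodes the CD11b used in the sort, was at 984, 1169, and 977 CPM with spironolactone and 1452, 1281, and 1485 with prednisolone (log2 fold change -0.43, adjusted p = 0.0353 in edgeR). *Itgb2*, its integrin partner, was also called lower with spironolactone (-0.41, adjusted p = 0.043 in edgeR), and the other 6 were not called. *Fcgr1* (0.465, unadjusted p = 0.0236 in edgeR) and *Cd68* (0.26, unadjusted p = 0.0295 in edgeR) went the other way, with every spironolactone library above every prednisolone library. The 15 lymphocyte markers summed to 44.9 to 52.0 CPM with spironolactone, 26.9 to 28.5 with vehicle, and 16.2 to 26.4 with prednisolone. Of the 14 tested, 6 were higher with spironolactone than with prednisolone at the adjusted threshold, *Gzma* (log2 fold change 2.28) and *Cd79a* (3.28) among them. The 10 endothelial markers summed to 195 to 270 CPM with spironolactone, 101 to 145 with vehicle, and 129 to 159 with prednisolone, and 5 of 10 were called in this contrast. The 10 dendritic cell markers summed to 131 to 202 CPM, 112 to 126, and 129 to 157 in the same order, and 2 of 10 (*Batf3* and *Clec10a*) were called. Neutrophils carry CD11b and fall within the gate, and their markers summed to 1352 to 3589, 738 to 4789, and 763 to 974 CPM. Of the 10 neutrophil markers, 8 were higher with spironolactone than with prednisolone (median log2 fold change 1.77), 7 had libraries that did not overlap, where 30.3% of all genes did not, and none was called. A gate for CD45 and CD11b would leave out endothelial cells and most T and B lymphocytes. The lymphocyte list also holds genes of NK and cytotoxic cells, *Gzma* among them, and whether NK cells passed the gate was not measured. The part of all these cells, or of the differences in single myeloid markers, in the result was not tested. Fibroblast markers summed to 850.2 to 1240 CPM with spironolactone, 636 to 922 with vehicle, and 807 to 914 with prednisolone. Skeletal muscle markers summed to 392 to 656, 209 to 322, and 332 to 524 CPM. The members themselves summed to 6528 to 7426 CPM, 5647 to 7684, and 5369 to 6607.

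The immunoproteasome can also be read within a library, since *Psmb8*, *Psmb9*, and *Psmb10* replace *Psmb5*, *Psmb6*, and *Psmb7*. The log2 ratio of *Psmb8* to *Psmb5* counts was 1.96, 1.77, and 1.88 in vehicle, 2.02, 2.15, and 1.91 in spironolactone, and 1.505, 1.37, and 1.77 in prednisolone libraries 1 to 3. Every prednisolone library was below every spironolactone library, by a mean of 0.48 (exact permutation test, 2-sided p = 0.1, the smallest that 3 against 3 can give). Prednisolone and vehicle differed by -0.32 and spironolactone and vehicle by 0.16 (exact p = 0.2 for both).

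The log2 ratio of *Psmb10* to *Psmb7* was -0.01, 0.25, and 0.31 in vehicle, 0.12, 0.47, and 0.20 in spironolactone, and 0.00, -0.23, and 0.00 in prednisolone. Spironolactone was higher than prednisolone by 0.34 (exact permutation p = 0.1), with no overlap. The ratio of *Psmb9* to *Psmb6* was -2.26, -1.76, and -1.73 in vehicle, -1.97, -1.57, and -1.53 in spironolactone, and -2.24, -2.08, and -1.73 in prednisolone, with overlap between all groups. Spironolactone was higher than prednisolone by 0.33 (exact permutation p = 0.2). *Psmb6* itself was higher with spironolactone, at 171 ± 14.0 against 133 ± 11.1 CPM (log2 fold change 0.35 ± 0.0958, adjusted p = 0.0485 in edgeR). The *Psmb9* difference was thus smaller when taken against its constitutive counterpart, and no exact permutation test of the 9 ratio comparisons can pass 0.05 with 3 libraries against 3.

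**Figure D3:**
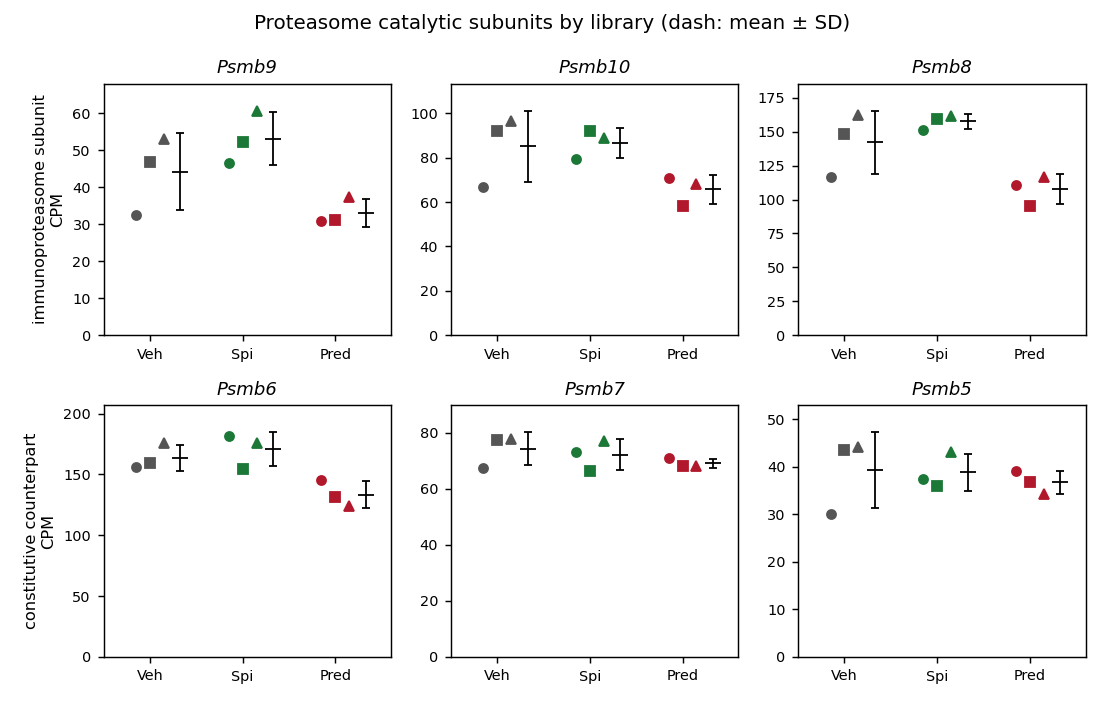
TMM-normalized CPM (y axes, from 0) of the 3 immunoproteasome catalytic subunits (top) and of the constitutive subunit that each replaces (bottom) in vehicle (Veh), spironolactone (Spi), and prednisolone (Pred) libraries. Points are libraries, and the dash with bars is the mean ± SD of 3. Prednisolone points are below all spironolactone points for *Psmb8*, *Psmb9*, *Psmb10*, and *Psmb6*, but not for *Psmb7* or *Psmb5*.

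The other proteasome genes had been listed as partners of the members: further subunits, the PA28 activator, and the assembly factor *Pomp*. With prednisolone, 17 of 19 were lower than vehicle, with a median log2 fold change of -0.17. None was called in edgeR, DESeq2, or limma-voom, and 6 had an unadjusted p under 0.05 in edgeR, all lower, where 14.2% of all genes passed: *Psma7* (-0.40), *Psmb10* (-0.37), *Psme1* (-0.35), *Psme2* (-0.35), *Pomp* (-0.29), and *Psmb6* (-0.29). *Psme1* and *Psme2* encode the PA28 subunits that interferon induces, while *Psme3* encodes a nuclear activator. *Psme3* was 0.16 higher with prednisolone, its libraries above those of vehicle. When vehicle replicate 1 was left out, 7 of the 19 were called, all lower (*Psmb10*, *Psme1*, *Psme2*, *Pomp*, *Psma4*, *Psma7*, and *Psmb3*), and 14 had an unadjusted p under 0.05, where 4.83% and 19.4% of all genes did. In the other 8 fits that left out a library none was called.

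Against prednisolone, 18 of 19 proteasome genes were higher with spironolactone (median 0.24), and *Psmb6* was the only one called in edgeR, while limma-voom called 0 and DESeq2 called *Psmb6*, *Psme1*, and *Psme3* (5.17%, 4.95%, and 10.5% of all genes were called by these tools). Without vehicle replicate 1, 6 were called (*Psmb6*, *Psmb10*, *Psme1*, *Psme2*, *Pomp*, and *Psma7*), where 11.1% of all genes were, and none was called in the other 8 fits that left out a library. With all libraries, a further 7 had an unadjusted p under 0.05 in that direction, where 22.5% of all genes passed in either direction: *Psme1* (0.47, adjusted p = 0.0532 in edgeR), *Psma7* (0.42), *Pomp* (0.41), *Psmb10* (0.40), *Psme2* (0.37), *Psmb1* (0.25), and *Psmb4* (0.24). *Psme3* was 0.25 lower. Against vehicle, spironolactone gave 1 unadjusted p under 0.05 among the 19, where 9.29% of all genes had one. This was *Psma5*, at 45.8 ± 1.49 against 40.3 ± 1.59 CPM (log2 fold change 0.18, adjusted p = 0.518 in edgeR). *Psma7* was nearly constant over the prednisolone libraries, at 67.8, 67.5, and 67.8 CPM.

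Of 20 other class I heavy chains and class I-like genes, 19 were listed and 15 were tested. With prednisolone 11 of 15 were lower than vehicle, with a median of -0.33, where 8668 of all 16618 genes tested were lower. Both genes called were lower, 2 of 15, where 1.76% of all genes were called. Without vehicle replicate 1, 4 were called (*H2-M3* and *H2-T22* in addition), where 4.83% of all genes were, and the same 4 were called between the drugs, where 11.1% were. *H2-K2* was at 24.2, 21.98, and 25.0 CPM in vehicle, 19.5, 24.7, and 22.7 in spironolactone, and 10.4, 15.2, and 13.7 in prednisolone. The prednisolone values were below all others, with log2 fold changes of -0.86 ± 0.141 against vehicle (adjusted p = 0.00879) and, for spironolactone against prednisolone, 0.77 ± 0.141 (adjusted p = 0.00903; edgeR). *H2-K2* lies next to *H2-K1*, and 2 overlapping gene models share its symbol in the annotation, so its counts are uncertain.

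*H2-Q4*, a nonclassical chain, was at 98.3, 127, and 103 CPM in vehicle, 99.7, 96.0, and 95.1 in spironolactone, and 71.2, 69.3, and 79.8 in prednisolone. It fell by 0.57 on the log2 scale with prednisolone (SE 0.103, adjusted p = 0.013) and was 0.40 higher with spironolactone than with prednisolone (adjusted p = 0.0391; edgeR). *H2-M3*, which presents N-formylated peptides, had a log2 fold change of -0.45 with prednisolone, *H2-T10* of -0.60, and *H2-T22* of -0.33 (adjusted p = 0.119, 0.28, and 0.252 in edgeR). Against prednisolone, spironolactone gave 0.44 for *H2-M3* and 0.39 for *H2-T22* (adjusted p = 0.0743 and 0.0955 in edgeR). DESeq2 and limma-voom both called *H2-Q4* and *H2-K2* with prednisolone against vehicle, where they called 4.47% and 1.58% of all genes. Between the drugs limma-voom called these 2 and DESeq2 also *H2-M3*, where 4.95% and 10.5% of all genes were called. *Fcgrt*, the neonatal Fc receptor, also pairs with beta-2 microglobulin and was at 96.4 ± 18.2, 120 ± 24.3, and 96.8 ± 11.8 CPM in vehicle, spironolactone, and prednisolone. Neither *Fcgrt* contrast with vehicle had an unadjusted p under 0.05. Against vehicle, no gene of this list had such a p with spironolactone, where 9.29% of all genes did.

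Peptide loading and trimming genes were taken next. Of 11, 7 were higher and 4 lower with prednisolone than with vehicle (median 0.05), and none was called in any comparison in edgeR. With DESeq2, 1 (*Ganab*) was called between the drugs, near the 10.5% of all genes called, and with limma-voom 0 were, where 4.95% of all genes were. *Uggt1* was called higher with prednisolone than with vehicle when vehicle replicate 1 was left out, and *Uggt1* and *Ganab* were then called lower with spironolactone than with prednisolone, where 4.83% and 11.1% of all genes were called. *Lnpep* was called between the drugs without spironolactone replicate 1, where 4.55% were. *Calr* (calreticulin, 1583 CPM over all libraries) and *Hspa5* (BiP, 1102 CPM) are chaperones of the endoplasmic reticulum and were the most abundant. *Hspa5* was 989 ± 63.5 CPM with prednisolone and 1185 ± 74.0 with vehicle (log2 fold change -0.26, unadjusted p = 0.0155, edgeR), while *Uggt1*, the glucosyltransferase that checks glycoprotein folding, was 205 ± 15.6 against 166 ± 22.4 (0.31, unadjusted p = 0.0138, edgeR). *Calr* differed by -0.04.

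Between the drugs, none of these 11 was called with all libraries and 5 had an unadjusted p under 0.05, where 22.5% of all genes passed, all lower with spironolactone: *Lnpep* (-0.37), *Uggt1* (-0.32), *Ganab* (-0.27), *Erap1* (-0.26), and *Canx* (-0.19). *Erap1* and *Lnpep* encode aminopeptidases that trim peptides, and *Canx* and *Ganab* act on newly made glycoproteins. Their adjusted p ran from 0.0728 for *Ganab* to 0.191 for *Canx* in edgeR. *Lnpep* was also 0.30 lower with spironolactone than with vehicle (adjusted p = 0.467 in edgeR).

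**Figure D4:**
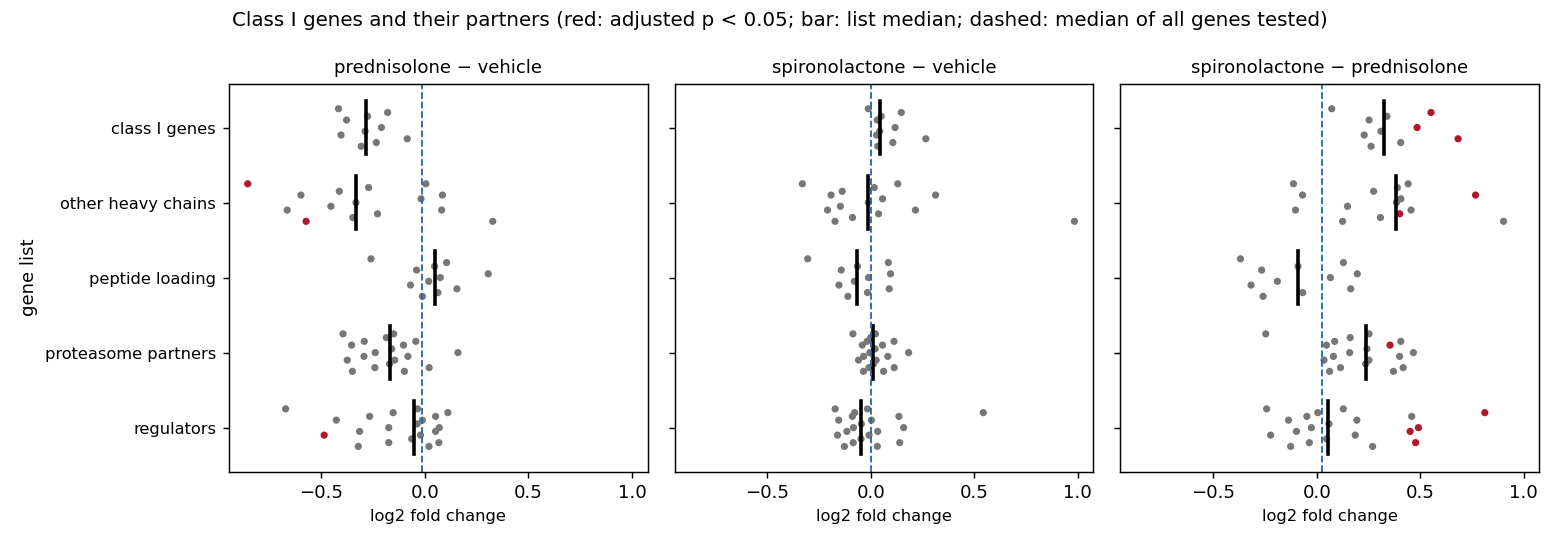
Log2 fold change (x axis) of each tested gene in the class I list and the 4 partner lists (rows), in the 3 comparisons. Red points have an adjusted p under 0.05, the black bar is the list median, and the dashed line is the median of all genes tested. For spironolactone against prednisolone the bar of the class I genes is at 0.32 and that of the peptide loading genes at -0.09.

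Interferon signaling genes and class I regulators were the last list, with 20 genes tested. *Irf1* encodes a transcription factor that acts at class I and immunoproteasome promoters. It was at 85.6, 91.8, and 90.1 CPM in vehicle, 89.9, 95.1, and 80.9 in spironolactone, and 65.7, 62.0, and 63.2 in prednisolone. It fell by 0.49 on the log2 scale with prednisolone (SE 0.0852, adjusted p = 0.0122) and was 0.48 higher with spironolactone than with prednisolone (adjusted p = 0.00781; edgeR). Vehicle replicate 1 was above every prednisolone library for *Irf1*.

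*Irf1* was the only one of the 20 called with prednisolone against vehicle in edgeR, where 1.76% of all genes were called. DESeq2 called *Irf1* and *Irf8*, where 4.47% of all genes were called, and limma-voom called *Irf1*, where 1.58% were. A further 4 were lower with an unadjusted p under 0.05, where 14.2% of all genes passed: *Socs1* (-0.67), *Stat2* (-0.43), *Rfxank* (-0.32), and *Irf8* (-0.32), with adjusted p from 0.1 (*Irf8*) to 0.334 (*Rfxank*) in edgeR. *Socs1* encodes an interferon-induced inhibitor of JAK kinases, *Stat2* a subunit of the interferon-activated complex ISGF3, and *Rfxank* a subunit of the RFX complex at MHC promoters. *Irf8* encodes a transcription factor of monocytes and dendritic cells.

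Between the drugs, 4 of the 20 were called, all higher with spironolactone, where 5.17% of all genes were called, and limma-voom called *Irf1* and *Irf8* alone, where 4.95% were. These were *Irf1*, *Irf8* (292 ± 15.5 against 214 ± 12.8 CPM, log2 fold change 0.45, adjusted p = 0.0129), *Socs1* (9.05 ± 1.94 against 5.15 ± 0.830 CPM, 0.81, adjusted p = 0.0411), and *Ciita* (93.7, 128, and 110 against 84.0, 74.7, and 76.8 CPM, 0.49, adjusted p = 0.0416; edgeR). *Ciita* encodes the class II transactivator, a relative of NLRC5, and was also 0.54 higher with spironolactone than with vehicle (unadjusted p = 0.000843, adjusted p = 0.151 in edgeR; called with DESeq2). *Stat2* was 0.46 higher with spironolactone than with prednisolone (adjusted p = 0.144 in edgeR) and *Jak2*, a kinase of the interferon-gamma receptor, 0.22 lower (adjusted p = 0.127 in edgeR). *Jak1*, among the most abundant of the list at 282 CPM, differed by -0.13. *Nlrc5* was not called in any comparison in edgeR. The genes of the list called were the same without vehicle replicate 1, 1 with prednisolone against vehicle and 4 between the drugs, where 4.83% and 11.1% of all genes were called. Over the 9 fits that left out a library, the calls between the drugs were kept in 9 for *H2-K2*, 8 for *Irf1*, 6 for *Irf8*, 3 each for *H2-Q4*, *Socs1*, and *Ciita*, and 1 for *Psmb6*. The calls against vehicle with prednisolone were kept in 9 for *H2-K2* and in 6 each for *H2-Q4* and *Irf1*.

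Genes whose pattern was most like that of the members were sought over all genes tested, by Pearson correlation with the mean standardized level of the 10 members over 9 libraries. They were *1600014C10Rik* (r = 0.975), *H2-T22* (0.972), *Gm10145* (0.97), *Acot8* (0.959), *Gngt2* (0.958), *Gbp2* (0.953), *Ccl5* (0.952), and *Lst1* (0.951). *Lst1* lies in the same gene complex as most members, *Gbp2* is an interferon-induced GTPase, and *Ccl5* is a chemokine. *Gbp2* was at 39.9, 59.3, and 62.0 CPM in vehicle, 52.9, 70.3, and 52.7 in spironolactone, and 37.6, 30.2, and 47.4 in prednisolone. As in the members, vehicle replicate 1 was low and prednisolone replicate 3 was the highest of its group. *Lst1* was at 89.6, 131, and 121 CPM in vehicle, 116, 146, and 126 in spironolactone, and 73.1, 62.9, and 86.1 in prednisolone. *Ccl5* was lower in level, at 8.95, 10.3, and 4.47 CPM on average in vehicle, spironolactone, and prednisolone. These correlations are over the same 9 libraries that gave the differences and are a description.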

How the data were processed

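RNA-Seq covered 9 pooled libraries of sorted myeloid cells. The authors aligned reads to mm39 with HISAT2 2.2.1 and counted them per gene with HTSeq 0.11.3 (versions from the submitters' processing notes), and the deposited values are raw counts. The annotation release and strand setting are not given in the sources used here. Lines that name no gene were left out. The deposited comparison tables hold the authors' DESeq2 1.32.0 fold changes and p-values and were not used.

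Differences were tested with R 4.3.3 and edgeR 4.0.16 (TMM, filterByExpr with minimum count 10 and minimum total 15, glmQLFit with robust=TRUE, all 9 libraries in one fit, 2-sided, Benjamini-Hochberg over 16618 genes, threshold 0.05). "Called" means an adjusted p under 0.05. CPM are TMM-normalized (factors 0.98 to 1.03). Log2 CPM used a prior count of 2. TPM were computed from GENCODE union exon lengths (at least 90.9% of counts had one). A gene at 1 CPM had near 32.3 counts. Ratios were tested by exact permutation. Libraries of the same group differed beyond sampling noise, and nothing in the labels ties same-numbered libraries together.

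The members and lists were chosen with earlier results of these data known. Named are all members, the partner-list genes with an unadjusted p under 0.05 in any comparison or among the 2 highest levels of a list, the constitutive subunits *Psmb5*, *Psmb6*, and *Psmb7* as denominators of the ratios, and the 8 genes most like the members. Genes beyond these, marker genes and *Psma4* and *Psmb3*, were named after their values were seen. Alternatives were DESeq2 1.42.0, limma 3.58.1 (voom), fits on 2 groups, other normalizations and filters, a non-robust fit, a block for replicate number, *Xist* as a covariate, and leaving out each library, which was added for the counts of partner-list genes after seeing the data. The tests were checked on simulated data with 200 changed genes. The changes set there were larger than any difference found in a member, so the check does not cover differences of that size.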

Additional observations from a re-analysis of the deposited data

How the results depend on the processing

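With prednisolone against vehicle, none of the 10 genes was called with all libraries in edgeR, 1 (*Psmb8*) with DESeq2 on all 9 libraries, and 3 without a low-count filter, where 1.76%, 4.47%, and 3.43% of all genes were called. Over the fits without 1 library the number was 0 to 5 called and 1 to 8 with an unadjusted p under 0.05. Of all genes, 0.402% to 4.83% were called and 10.1% to 19.4% had such a p in these fits. With spironolactone against vehicle, 1 gene (*Psmb9*) had an unadjusted p under 0.05 without a filter and with the replicate block, and 0 to 1 did without 1 library. Of all genes, 8.03%, 9.68%, and 6.54% to 11.2% had such a p in that order, so these counts are near the share over all genes. Between the drugs 3 were called, and 3 with DESeq2 on all 9 libraries, but 6 with DESeq2 and 5 with edgeR on 2 groups, and 1 with the *Xist* covariate. The shares of all genes called were 5.17%, 10.5%, 13.4%, 9.98%, and 3.82% in that order. With library totals only and with robust=FALSE 2 were called (*Psmb8* and *Psmb9*, not *Tap1*), and without a low-count filter 4, where 5.52%, 4.96%, and 6.52% of all genes were. The number called was 0 to 5 without 1 library (3 to 8 with an unadjusted p under 0.05), where 1.35% to 11.1% (16.7% to 26.2%) of all genes were. The causes were not tested. Same-numbered libraries had correlations of -0.0675 to 0.258, so the numbers were not taken to pair libraries. With the replicate block, 0 were called for prednisolone against vehicle (6 with an unadjusted p under 0.05) and 4 between the drugs, where 2.02% (14.8%) and 6.51% of all genes were. The direction turned in *Nlrc5* with voom (-0.0114) and in *Tapbp* with upper quartile scaling (0.0161), both for spironolactone against vehicle. Over the fits without 1 library, that difference ran from -0.044 to 0.1431 for *H2-K1*, -0.0546 to 0.1575 for *H2-D1*, -0.0506 to 0.2226 for *H2-T23*, -0.0943 to 0.1576 for *B2m*, -0.0184 to 0.1789 for *Tap1*, -0.0719 to 0.1025 for *Tap2*, -0.0905 to 0.04 for *Tapbp*, and -0.2395 to 0.1903 for *Nlrc5*. Between the drugs it ran from -0.0052 to 0.1537 for *Tapbp* and from -0.0059 to 0.4238 for *Nlrc5*, and no other member changed sign.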
